A study of Mus musculus with 54 samples.

Results

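The HoxC and HoxD clusters are a pair of the 4 groups of neighbouring homeobox genes of the mouse. The 10 genes described here were Hoxc4, Hoxc5, Hoxc6, Hoxc8, Hoxc9, Hoxc10, Hoxd1, Hoxd3, Hoxd4 and Hoxd8. They were taken by symbol from an expression table of 21960 genes. All 10 had a row, and 9 passed the filter on low values, which asked for 1 FPKM (fragments per kilobase of transcript scaled by sequencing depth) or more in at least 3 libraries. Hoxc10 did not pass and is given by its values. The table also held 8 other HoxC and HoxD genes, of which 2 passed, Hoxc13 and Hoxd13.

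Hox genes encode transcription factors that give cells along the head-to-tail axis their positional identity. Genes at the 3′ end of a cluster, with low paralogue numbers, are known to be switched on first and furthest forward, and those towards the 5′ end later and further back. Retinoic acid, made from vitamin A and sensed by nuclear receptors, is a known inducer of the 3′ genes, and in the spinal cord the HoxC genes of the middle of the cluster are known to pattern motor neurons along the trunk.

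The cells were R1 mouse embryonic stem cells, an established line, aggregated in hanging drops for 48 h in medium with 15% serum replacement and 1000 U/ml LIF, per the labels. Retinoic acid, given in the labels as 0.5 mM, was added to drive differentiation, and RNA was sequenced at day 0 (7 libraries), day 2 (3), day 4 (3), day 10 (5) and day 20 (4). The labels give all groups the same line and protocol and tell them apart by day alone. The labels do not say whether day 0 preceded aggregation or retinoic acid, nor whether libraries of 1 day were grown as separate cultures, so each p-value here reflects spread between libraries alone, possibly of technical origin. The 32 ATAC-seq libraries of the study were not used here.

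Levels are FPKM as deposited, with means ± SD over the libraries of a day. Library sums ranged from 472122 to 678222 FPKM, and 16131 to 17948 genes per library were above 0. No read totals were used here, so the depth behind a low value is unknown. The stem cell marker Pou5f1 fell from 865 ± 116 FPKM at day 0 to 0.195 ± 0.124 at day 20 (SD, n = 7 and 4). The neuronal tubulin Tubb3 was highest at day 4 (688 ± 3.99 FPKM, n = 3), and the astrocyte filament Gfap at day 20 (1413 ± 65.6 FPKM, n = 4). The summed level of 6 neuron markers ran from 1400 to 1426 FPKM at day 4, from 757.8 to 773.5 at day 10 and from 257.9 to 259.8 at day 20. That of 6 epithelial markers ran from 147.8 to 151.8 FPKM at day 4, from 195.7 to 214.2 at day 10 and from 1682 to 1835 at day 20, and that of 5 astrocyte markers from 22.3 to 27.4, 417.8 to 464.0 and 1660 to 1819. None of these markers was at 0 in every library of those days. Most of the astrocyte sum at day 20 was Gfap. From day 10 to day 20, 3 of the 5 astrocyte markers rose and 2 fell (limma, adjusted p under 0.05). Of all 14982 tested genes, 5567 rose and 5703 fell in that step. The marker sums changed between the same days as the Hox levels below, and their part in the Hox results was not tested. In bulk RNA, fewer cells of a type and less RNA per cell cannot be told apart.

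RefSeq promoter sequences (build GRCm38.p6) were given for 5 of the 10 genes: Hoxc4, Hoxd1, Hoxd3, Hoxd4 and Hoxd8. Those of 3 HoxD genes are shown because their levels peaked on different days, Hoxd1 at day 2, Hoxd4 at day 4 and Hoxd8 on a plateau from day 4 to day 10. Each run is the 250 bases before the annotated start, on the plus strand, 5′ to 3′. Capitals mark matches, on either strand, to TTTATG, a sequence that posterior Hox and Cdx proteins are known to bind, or to the retinoic acid receptor half-site AGGTCA and its searched variants, namely AGTTCA as well as the form GGGTCA and also the form GGTTCA.
Hoxd1, chr2:74762730-74762979: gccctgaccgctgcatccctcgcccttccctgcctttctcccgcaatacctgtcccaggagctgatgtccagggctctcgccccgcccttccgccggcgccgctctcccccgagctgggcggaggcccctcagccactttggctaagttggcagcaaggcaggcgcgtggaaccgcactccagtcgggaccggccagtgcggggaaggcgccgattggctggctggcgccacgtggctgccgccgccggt
Hoxd4, chr2:74721728-74721977: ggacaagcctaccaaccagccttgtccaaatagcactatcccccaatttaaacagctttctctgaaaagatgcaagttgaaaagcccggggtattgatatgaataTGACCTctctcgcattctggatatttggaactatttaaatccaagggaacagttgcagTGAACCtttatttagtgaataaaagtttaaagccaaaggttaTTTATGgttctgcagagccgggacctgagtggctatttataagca
Hoxd8, chr2:74704365-74704614: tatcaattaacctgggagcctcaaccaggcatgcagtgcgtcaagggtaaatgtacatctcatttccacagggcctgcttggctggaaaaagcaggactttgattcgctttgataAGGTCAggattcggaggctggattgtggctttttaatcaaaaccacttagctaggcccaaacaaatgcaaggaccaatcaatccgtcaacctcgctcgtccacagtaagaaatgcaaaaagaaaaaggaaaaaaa
The Hoxd1 stretch held no match and was rich in G and C (71.6%), with 24 CpG dinucleotides. The Hoxd4 stretch, at 40.4% G and C with 3 CpG, held TTTATG 45 bases before the start and half-sites 145 and 87 bases before it. The Hoxd8 stretch, at 44.4% G and C with 6 CpG, held 1 half-site, 135 bases before the start. In the full 300-base windows, which add 50 bases after the start, Hoxd4 had a further TTTATG. Of all 32851 windows of that length, 11.9% held TTTATG at least 1 time and 1.27% as often as Hoxd4, while 43.7% held a half-site and 13.1% at least 2. In the Hoxd3 window a TTTATG and a half-site overlapped. None of the 5 windows held 2 half-sites in direct repeat 5 or 2 bases apart, which 0.0974% and 0.268% of all windows did, nor TGATNNAT, a Pbx-Hox type motif that 8.85% did. These matches are a description of the letters in the windows.

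All 9 tested members were higher at day 2 than at day 0 (limma, adjusted p under 0.05), as were 42% of all 14982 tested genes. All 9 were higher at day 4 (47% of all genes) and at day 10 (54.1%) than at day 0, although under quantile normalization Hoxd1 was lower at day 10 (log2 change -0.30). At day 20, 8 were higher than at day 0 (55.3% of all genes), Hoxc9 among them but not under quantile normalization (-0.02), and Hoxd1 was not. The median log2 change of the 9 members was 2.00, 4.94, 4.03 and 2.03 at days 2, 4, 10 and 20, against 0.07, 0.12, 0.28 and 0.38 over all tested genes. These 4 comparisons share their day-0 libraries. No day-0 library of the 9 members reached 1 FPKM (the highest stood at 0.87), so each passed the filter through later days. The counts and changes against day 0, with their p-values, are therefore a description. With day-0 replicates 1 to 3 alone as the reference, or replicates 4 to 7 alone, the numbers of higher members were 9, 9, 9 and 8 as well. Each change is a difference of log2(FPKM + 1), ± SE, and so understates the rise of genes near 0: with 0.1 FPKM added, the rise of Hoxc8 at day 4 was 4.64 in place of 1.82.

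The steps between later days split the members. From day 2 to day 4, 6 members rose (38% of all genes did) and 2 fell, Hoxd1 and Hoxc9 (34% of all genes). From day 4 to day 10, 3 rose, all of HoxC (Hoxc6 by a narrow margin, Hoxc8 and Hoxc9; 41.4% of all genes), and 5 fell, Hoxc4, Hoxc5, Hoxd1, Hoxd3 and Hoxd4 (32.3% of all genes). From day 10 to day 20 all 9 fell (38.1% of all genes), by a median of -1.35 on the log2 scale against -0.02 over all genes. All 9 were also lower at day 20 than at day 4 (38.5% of all genes). Against day 2, 7 members were higher at day 10 (48.5% of all genes) and 2 lower (33.6%), though under quantile normalization Hoxc9 turned and Hoxd3 lost its call. Also against day 2, Hoxc6 and Hoxd8 were higher at day 20 (51.8%) and 7 lower (33.8%), and only Hoxc6 stayed higher under quantile normalization or with 0.1 FPKM added.

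**Figure D1:**
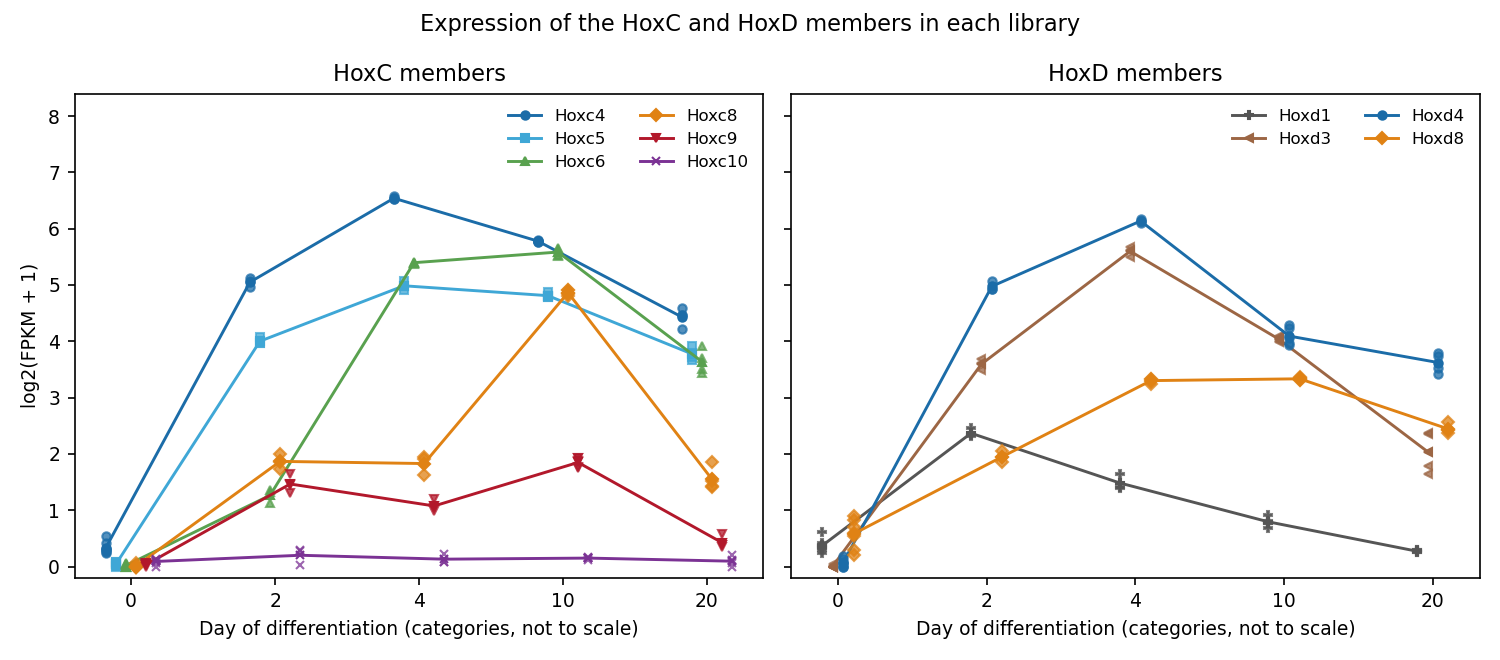
Level of each member in every library by day, as log2(FPKM + 1); points are libraries, lines join day means, and days are drawn at equal spacing. Hoxc4 (left) and Hoxd4 (right) are the highest at day 4, Hoxc8 rises steeply between days 4 and 10, Hoxd1 is highest at day 2, and Hoxc10 stays near 0.

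Hoxd1 is the HoxD gene of paralogue group 1, known in the mouse for its role in the wiring of pain-sensing neurons. Its day-0 libraries ran from 0.18 FPKM, with a median of 0.27, to 0.53. The day-2 libraries stood at 3.97, 4.03 and 4.50 FPKM and the day-4 libraries at 1.64, 1.66 and 2.12. The day-10 libraries stood at 0.61, 0.71, 0.72, 0.76 and 0.88 FPKM and the day-20 libraries at 0.19, 0.20, 0.22 and 0.22. Hoxd1 thus reached its highest level at day 2, above every library of every other day, and each later day lay below the one before it with no overlap. The rise to day 2 was 2.00 ± 0.07 (limma adjusted p = 1.73e-16), and the falls were -0.88 ± 0.08 from day 2 to day 4 (3.78e-09), -0.69 ± 0.07 from day 4 to day 10 (2.99e-08) and -0.52 ± 0.07 from day 10 to day 20 (5.34e-07). Hoxd1 passed the filter through its day-2 and day-4 libraries alone, so these changes are a description. Day 20 and day 0 overlapped and did not differ beyond their spread (-0.10 ± 0.06, adjusted p = 0.14), but Hoxd1 was called lower at day 20 under quantile normalization (-0.71, adjusted p = 1.17e-09) and against day-0 replicates 4 to 7 alone (-0.16, adjusted p = 0.0405).

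Hoxd3, which patterns the first neck vertebrae, was listed at 0 in 6 of 7 day-0 libraries and at 0.03 FPKM in the other. The libraries stood at 10.26, 11.19 and 11.85 FPKM at day 2 and at 43.95, 48.50 and 50.21 at day 4. They fell to 14.82, 15.06, 15.37, 15.87 and 16.02 FPKM at day 10 and to 2.11, 2.45, 4.12 and 4.20 at day 20. No library of 1 day overlapped with another day. The day-20 libraries fell in a lower and an upper pair, with the widest spread relative to the mean of any later day for this gene (3.22 ± 1.10 FPKM). The change was 2.00 ± 0.13 from day 2 to day 4 (limma adjusted p = 1.15e-11) and -1.56 ± 0.12 from day 4 to day 10 (1.11e-10).

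Hoxd4, a gene of the hindbrain and neck with a known retinoic acid response, ran from 0 to 0.14 FPKM at day 0, with a median of 0.04. Its libraries stood at 29.30, 29.51 and 32.73 FPKM at day 2 and at 67.91, 68.98 and 71.13 at day 4. At day 10 they stood at 14.21, 14.60, 15.62, 17.82 and 18.46 FPKM, and at day 20 at 9.75, 10.56, 12.33 and 12.92. Every day was separate from every other, and day 10 lay below day 2. The step from day 4 to day 10 was -2.04 ± 0.09 (limma adjusted p = 5.22e-15), a drop to 23.3% of the day-4 mean. It then lost less, -0.47 ± 0.08 from day 10 to day 20 (1.92e-05). In RefSeq the gene model of Hoxd3 overlaps that of Hoxd4 and of an antisense gene, Hoxd3os1, which had no row of its own; the labels do not state whether the libraries keep strand, so reads of overlapping genes cannot be told apart.

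Hoxc4, the 3′ end of HoxC and the member with the highest mean at days 2, 4, 10 and 20, ran from 0.18 to 0.45 FPKM at day 0, with a median of 0.23. The day-2 libraries stood at 30.39, 32.44 and 33.67 FPKM, and the day-4 libraries at 90.96, 91.09 and 94.28. At day 10 they stood at 53.36, 53.37, 53.68, 54.21 and 54.96 FPKM, and at day 20 at 17.55, 20.98, 21.23 and 22.98. The days did not overlap, in the order 4, 10, 2, 20 and 0 from high to low. Hoxc4 rose by 4.71 ± 0.07 to day 2 (limma adjusted p = 3.69e-23) and by a further 1.49 ± 0.08 to day 4 (2.56e-13), then changed by -0.76 ± 0.07 to day 10 (3.02e-09). Hoxc4 and Hoxd4, paralogues of group 4, had similar means at day 2 (32.2 ± 1.66 and 30.5 ± 1.92 FPKM), whereas at day 10 Hoxc4 kept 58.5% of its day-4 mean.

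Hoxc5, which with Hoxa5 is known to be needed for the motor neurons of the diaphragm, ran from 0 to 0.06 FPKM at day 0, with a median of 0.03. Its libraries stood at 14.60, 14.61 and 15.90 FPKM at day 2 and at 29.04, 30.67 and 32.44 at day 4. At day 10 they stood at 26.48, 26.71, 26.89, 26.92 and 28.35 FPKM, and at day 20 at 11.77, 12.15, 12.86 and 14.17. It shared the order of days of Hoxc4, with a smaller fall after day 4. That fall was -0.18 ± 0.06 (limma adjusted p = 0.00793), and it was not called without day-4 replicate 2 (-0.14, 0.0639), with 0.1 FPKM added (-0.18, 0.193) or with libraries scaled to the same FPKM sum (-0.02, 0.774). Day 20 was lower than day 2 (-0.23 ± 0.06, adjusted p = 0.00128), a direction that turned under scaling to the same sum (0.02).

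Hoxc6, which marks the motor neurons of the forelimb level, was listed at 0 in 4 of 7 day-0 libraries and reached at most 0.04 FPKM in the others. At day 2 the libraries stood at only 1.18, 1.49 and 1.56 FPKM. At day 4 they stood at 40.64, 40.99 and 41.69, a 29.2-fold higher mean than at day 2. At day 10 they stood at 44.75, 45.54, 47.00, 48.59 and 49.20 FPKM, and at day 20 at 9.81, 10.34, 11.98 and 14.18. Hoxc6 was thus low at day 2, when its neighbours Hoxc4 and Hoxc5 were already up, and high at both day 4 and day 10. The step from day 2 to day 4 was 4.13 ± 0.09 (limma adjusted p = 4.32e-20). The step from day 4 to day 10 was 0.19 ± 0.08 (0.0398), with libraries that did not overlap, and it lost its call without any 1 of the day-4 libraries (adjusted p of 0.0683 to 0.0959), without day-10 replicate 1, 2 or 5 (0.0578 to 0.0781) and with 0.1 or 0.5 FPKM added (0.207 and 0.0619).

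Hoxc8, which sets the motor pools of the hind part of the forelimb level, was listed at 0 in 6 of 7 day-0 libraries and at 0.05 FPKM in the other. The libraries stood at 2.33, 2.64 and 3.01 FPKM at day 2 and at 2.10, 2.75 and 2.86 at day 4. They reached 26.81, 27.63, 27.97, 28.99 and 29.25 FPKM at day 10 and were back at 1.65, 1.70, 1.85 and 2.61 at day 20. Only day 10 was high: days 2 and 4 overlapped, and so did each of them with day 20. The change from day 2 to day 4 was -0.04 ± 0.10 (limma adjusted p = 0.745), its sign turned under scaling to the same FPKM sum (0.17), and under quantile normalization it was called lower (-0.26, adjusted p = 0.0272). The rise from day 4 to day 10 was 3.03 ± 0.09 (6.09e-18), a 10.9-fold higher mean, and the fall to day 20 was -3.31 ± 0.08 (2.35e-19), a 14.4-fold difference in means. Day 20 was below day 4 (-0.28 ± 0.09, 0.00827), but not by a called amount without day-4 replicate 3 (-0.22, 0.0571) or in a fit of those days alone (-0.28, 0.0748), and below day 2 (-0.32 ± 0.09, 0.00306), but not with libraries scaled to the same sum (-0.13, 0.203).

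Hoxd8, the HoxD paralogue of Hoxc8, followed another course. Its day-0 libraries ran from 0.15 to 0.87 FPKM, with a median of 0.52, above those of Hoxc8. The day-2 libraries stood at 2.60, 2.86 and 3.16 FPKM and the day-4 libraries at 8.47, 9.01 and 9.12. At day 10 the libraries were at 8.92, 8.92, 9.16, 9.16 and 9.27 FPKM, and at day 20 at 4.15, 4.34, 4.37 and 4.91. The rise came before day 4 (1.35 ± 0.13 from day 2 to day 4, limma adjusted p = 5.15e-09). Days 4 and 10 overlapped and did not differ beyond their spread (0.03 ± 0.12, adjusted p = 0.815), with the sign turning under quantile normalization (-0.13) and with a replicate block (-0.03). Day 20 stayed above day 2 (0.49 ± 0.12, 0.000802), but this was not called with 0.1 FPKM added (0.61, 0.073) and turned to -0.35 under quantile normalization. In RefSeq the model of Hoxd8 overlaps a predicted gene, Gm38462.

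Hoxc9, known to set thoracic identity in motor neurons and to repress the forelimb-level genes, was low throughout. Its day-0 libraries ran from 0 to 0.04 FPKM, with a median of 0.03. The day-2 libraries stood at 1.47, 1.72 and 2.14 FPKM and the day-4 libraries at 0.98, 1.05 and 1.31. At day 10 the libraries were at 2.35, 2.40, 2.68, 2.79 and 2.82 FPKM, and at day 20 at 0.27, 0.31, 0.31 and 0.49. It was the only tested HoxC member below its day-2 level at day 4 with no overlap. That fall was -0.39 ± 0.08 (limma adjusted p = 2e-04), and the rise to day 10 was 0.77 ± 0.07 (3.46e-09). Day 10 lay above day 2 as deposited (0.38 ± 0.07, 5.4e-05) but below it under quantile normalization (-0.32). Hoxc10, a gene of the lumbar level, ran from 0 to 0.23 FPKM over the 22 libraries, with its highest mean at day 2 (0.153 ± 0.116 FPKM, n = 3). With no filter on low values (19709 genes), its smallest limma adjusted p over the 10 comparisons between days was 0.0629, for day 2 against day 0 (log2 change 0.11 ± 0.05).

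Summed over the members, HoxC and HoxD were close at day 2 and parted afterwards. The 6 HoxC genes summed to 0.413 ± 0.118, 53.2 ± 0.914, 167.7 ± 1.28, 158.8 ± 1.65 and 47.4 ± 3.99 FPKM at days 0, 2, 4, 10 and 20. The 4 HoxD genes summed to 0.869 ± 0.346, 48.6 ± 1.29, 127.6 ± 3.52, 41.4 ± 1.83 and 19.3 ± 2.65 FPKM. The ratio of the HoxC to the HoxD sum was 1.09 ± 0.0359 at day 2 and 1.32 ± 0.0434 at day 4, then 3.84 ± 0.142 at day 10 and 2.48 ± 0.209 at day 20. Its lowest library at day 10 (3.67) was above the highest of any other day (2.72). At day 0 the ratio ran from 0.355 to 0.92, of sums that were all at or below 1.37 FPKM. From day 4 to day 10, 3 of the 5 tested HoxC members rose and 2 fell, and of the 4 HoxD members none rose and 3 fell, where 41.4% of all genes rose and 32.3% fell. The rise of Hoxc6 and the fall of Hoxc5 among these lost their calls under several alternatives. The sums are a description and were not tested. HoxC alone holds members of groups 5 and 6, Hoxc5 and Hoxc6, at 27.1 ± 0.737 and 47.0 ± 1.91 FPKM at day 10. HoxD alone holds members of groups 1 and 3. The sums and their ratio thus depend in part on which groups each cluster holds.

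**Figure D2:**
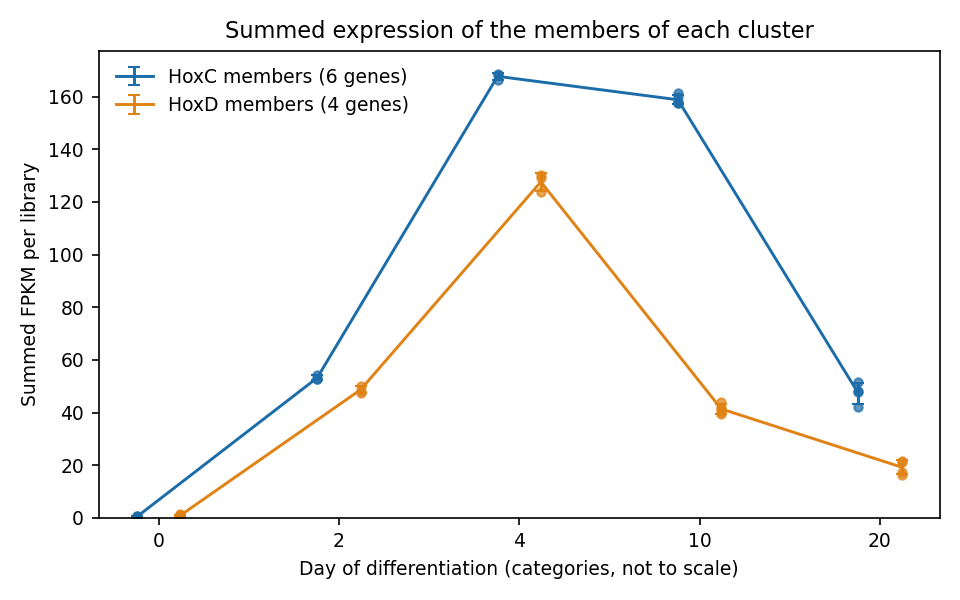
Summed FPKM of the 6 HoxC and the 4 HoxD members in each library (points), with the day mean and SD (lines and bars); days are drawn at equal spacing. Both sums rise together to day 2, and at day 10 HoxC stays at 158.8 FPKM while HoxD is at 41.4.

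The make-up of each sum moved towards higher paralogue numbers from day 2 to day 10. Hoxc4 took 60.4 ± 2.29% of the HoxC sum at day 2, 54.9 ± 0.934% at day 4, 33.9 ± 0.669% at day 10, then 43.7 ± 3.17% at day 20. Hoxc6 went from 2.65 ± 0.376% at day 2 to 24.5 ± 0.228% at day 4 and 29.6 ± 0.955% at day 10. Hoxc8 went from 5.01 ± 0.716% at day 2 down to 1.53 ± 0.248% at day 4, up to 17.7 ± 0.570% at day 10 and back to 4.15 ± 0.985% at day 20. In HoxD, Hoxd4 held 62.7 ± 2.40% at day 2 and 38.9 ± 3.05% at day 10, and Hoxd8 went from 5.92 ± 0.682% to 21.98 ± 0.833% between the same days. Weighted by FPKM, the mean paralogue number of HoxC was 4.72 ± 0.0326, 4.77 ± 0.00524, 5.56 ± 0.0243 and 4.97 ± 0.0726 at days 2, 4, 10 and 20. For HoxD it was 3.75 ± 0.0182, 3.86 ± 0.0296, 4.45 ± 0.0140 and 4.74 ± 0.149. By this mean, HoxC turned back towards its 3′ genes at day 20, while HoxD did not. In HoxD, Hoxd3 lost share from day 10 to day 20 and Hoxd8 stayed near its day-10 share. At day 0, on sums at or below 1.37 FPKM, the mean paralogue number was 5.43 ± 0.674 for HoxC and 5.16 ± 0.926 for HoxD. At day 20 Hoxd4 took 59.2 ± 1.60% and Hoxd8 23.3 ± 3.07% of the HoxD sum, and Hoxd3 dropped from 37.3 ± 2.19% at day 10 to 16.4 ± 3.46%.

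**Figure D3:**
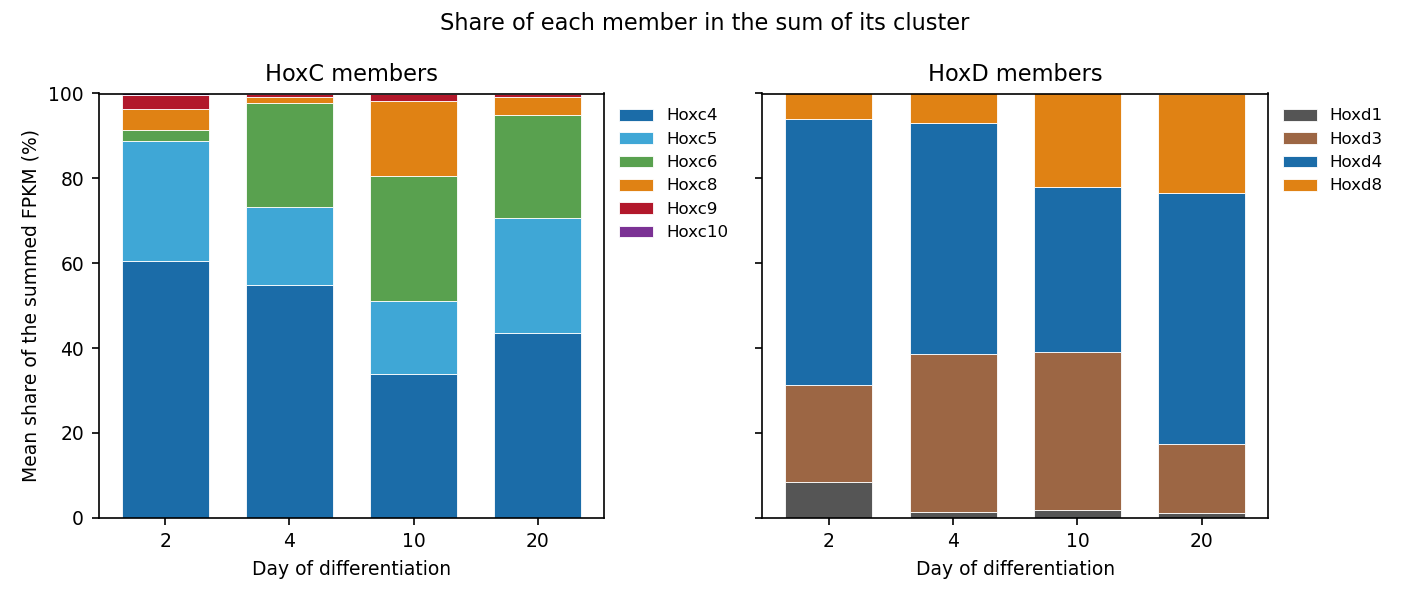
Mean share of each member in the summed FPKM of its cluster at days 2, 4, 10 and 20; the sums at day 0 were too low for shares to be drawn. Hoxc6 widens from 2.65% at day 2 to 24.5% at day 4, and Hoxc8 and Hoxd8 are widest at day 10 in HoxC and at days 10 and 20 in HoxD.

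Some neighbours on the chromosome kept close courses, as Hoxc4 and Hoxc5 did, and others, such as Hoxc6 and Hoxc8, did not. FPKM is per length, so levels may be set against each other within a library. Hoxc4 stayed above Hoxc5 on all later days, by a mean ratio of 2.15 ± 0.208 at day 2, 3.01 ± 0.222 at day 4, 1.99 ± 0.0399 at day 10, then 1.63 ± 0.153 at day 20. Hoxc5 over Hoxc6 turned over, from 10.8 ± 1.39 at day 2 to 0.747 ± 0.0354 at day 4 and 0.577 ± 0.0350 at day 10. Hoxc6 over Hoxc8 was 0.535 ± 0.0973 at day 2, 16.3 ± 3.07 at day 4, 1.67 ± 0.0689 at day 10, then 6.14 ± 1.72 at day 20. At day 2 Hoxc8 was therefore above Hoxc6 in every library (the highest ratio was 0.639), the reverse of their order on the other later days. Across the 22 libraries, which share the day pattern, Pearson's r of log2 levels was 0.996 between Hoxc4 and Hoxc5, 0.956 between Hoxd3 and Hoxd4, 0.826 between Hoxc6 and Hoxc8 and 0.121 between Hoxc6 and Hoxd1.

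Among the reported genes of the 4 clusters, group 1 had its highest means at day 2 and groups 2 to 5 at day 4. From group 6 on, the day of the highest mean varied between genes. Hoxb1 and Hoxd1, of group 1, peaked at day 2, at 17.1 ± 1.01 FPKM for Hoxb1 and 4.17 ± 0.290 for Hoxd1. All 4 group 4 genes and all 3 group 5 genes peaked at day 4. In group 6, Hoxc6 and Hoxa6 (34.8 ± 2.58 FPKM) peaked at day 10 and Hoxb6 (156.9 ± 7.10) at day 4. Hoxa7 and Hoxb7 of group 7 peaked at day 10, and Hoxa10 at day 20. In group 8, Hoxb8 stood at 323.4 ± 5.61 FPKM at day 4, when Hoxc8 stood at 2.57 ± 0.411 and Hoxd8 at 8.87 ± 0.348. In group 9, Hoxb9 reached 192.7 ± 8.29 FPKM and Hoxa9 4.89 ± 0.815 at day 4, and Hoxc9 2.61 ± 0.220 at day 10. Hoxc8 was the only tested group 8 gene whose day-4 mean was below its day-2 mean as deposited, a difference that was not called, that turned with libraries scaled to the same FPKM sum and that was called lower under quantile normalization. Among the tested genes reported here, 3 of 5 HoxC members and 1 of 4 in HoxD peaked at day 10, against 2 of 8 in HoxA and 1 of 9 in HoxB. The HoxD gene is Hoxd8, whose days 4 and 10 did not differ beyond their spread. The sign of that difference turned under quantile normalization and with a replicate block. Of the 3 in HoxC, Hoxc6 lost its call between these days under several alternatives. Hoxc9, another of the 3, stood below its day-2 level at day 10 under quantile normalization (-0.32). The HoxC and HoxD counts leave out Hoxc13 and Hoxd13, which passed the filter and peaked at day 0. HoxC also had no gene of groups 1 to 3 here, and the reported genes of those groups in the other clusters peaked at day 2 or day 4. The peak counts thus depend in part on which groups each cluster holds. They are a description, given without the share of all tested genes that peaked on each day.

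**Figure D4:**
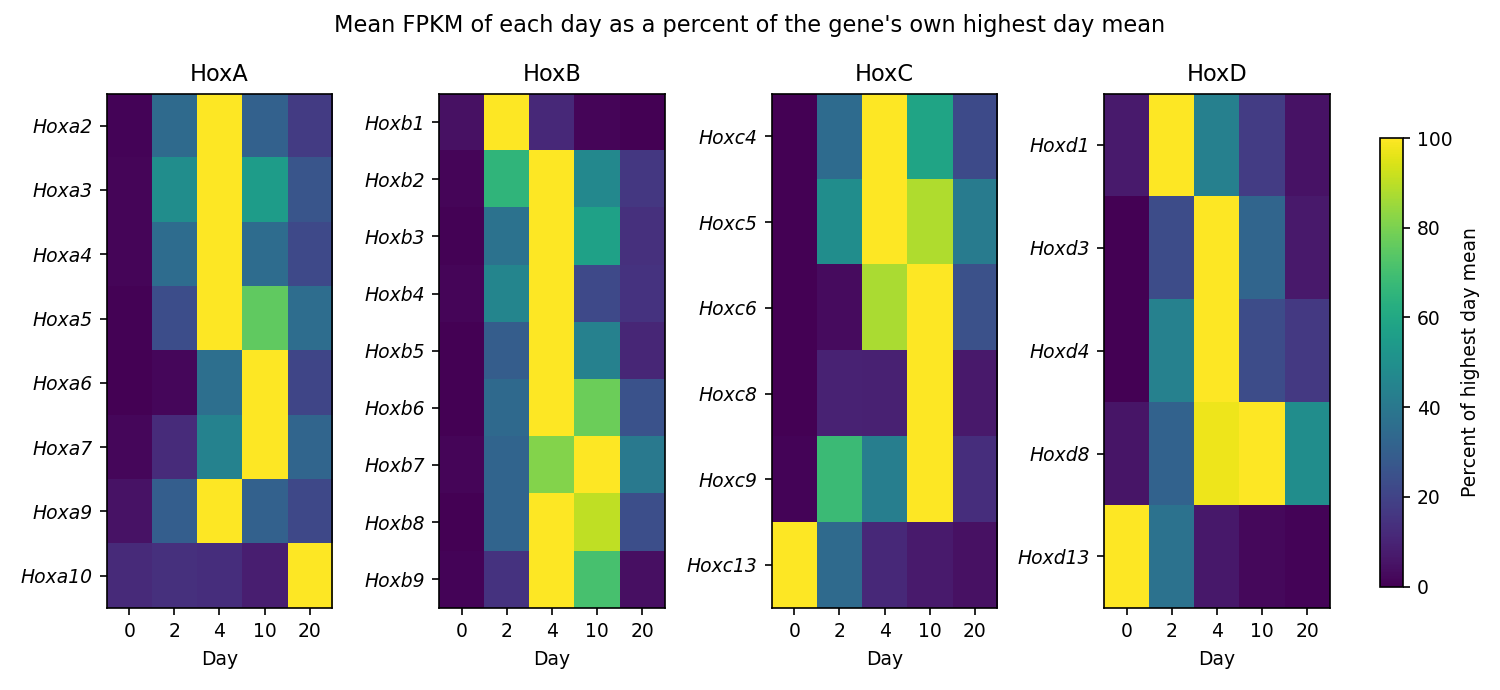
Mean FPKM at each day as a percent of the gene's own highest day mean, for the reported Hox genes that passed the filter, in paralogue order from top to bottom in each cluster. Hoxb1 and Hoxd1 are brightest at day 2 and groups 2 to 5 at day 4, Hoxc8 is bright at day 10 alone, and Hoxc13 and Hoxd13 are brightest at day 0.

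The genes at the 5′ ends were highest at day 0. Hoxc13, known for its role in hair and nails, stood between 1.90 and 3.55 FPKM in the day-0 libraries, with a median of 3.42, and fell to 0.86, 1.02 and 1.10 at day 2 and to 0.28, 0.31 and 0.39 at day 4. Day-0 replicates 1 to 3 (1.90 to 2.16 FPKM) lay below replicates 4 to 7 (3.42 to 3.55), a split that no label accounts for, and both sets lay above day 2. Hoxc13 and Hoxd13 would not have passed the filter without their day-0 libraries, so their changes are given from the fit with no filter on low values. The change of Hoxc13 to day 2 was -0.93 ± 0.12 (limma adjusted p = 9.38e-07), and that from day 2 to day 4 was -0.59 ± 0.14 (0.00135). Hoxd13, needed for digits, ran from 1.37 to 2.03 FPKM at day 0, with a median of 1.87, and stood at 0.49, 0.70 and 0.89 at day 2 and at 0.11, 0.11 and 0.13 at day 4. Its changes over the same steps were -0.75 ± 0.06 (limma adjusted p = 2.02e-09) and -0.59 ± 0.08 (7.56e-07). At day 20 the means were 0.125 ± 0.0603 FPKM for Hoxc13 and 0.0200 ± 0.0141 for Hoxd13. Hoxc12 did not pass the filter. It ran from 0.31 to 0.77 FPKM at day 0, with a median of 0.45, and was listed at 0 in all 3 day-2 libraries. Between the ends, Hoxc11, Hoxd10, Hoxd11 and Hoxd12 did not exceed a mean of 0.193 FPKM on any day. Hoxd9 ran between day means of 0.200 and 0.643 FPKM, with its highest mean at day 2. With no filter, it was called higher than day 0 at day 2 (log2 change 0.45 ± 0.06, limma adjusted p = 1.19e-06), and Hoxc12 lower (-0.58 ± 0.06, 1.12e-07).

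**Figure D5:**
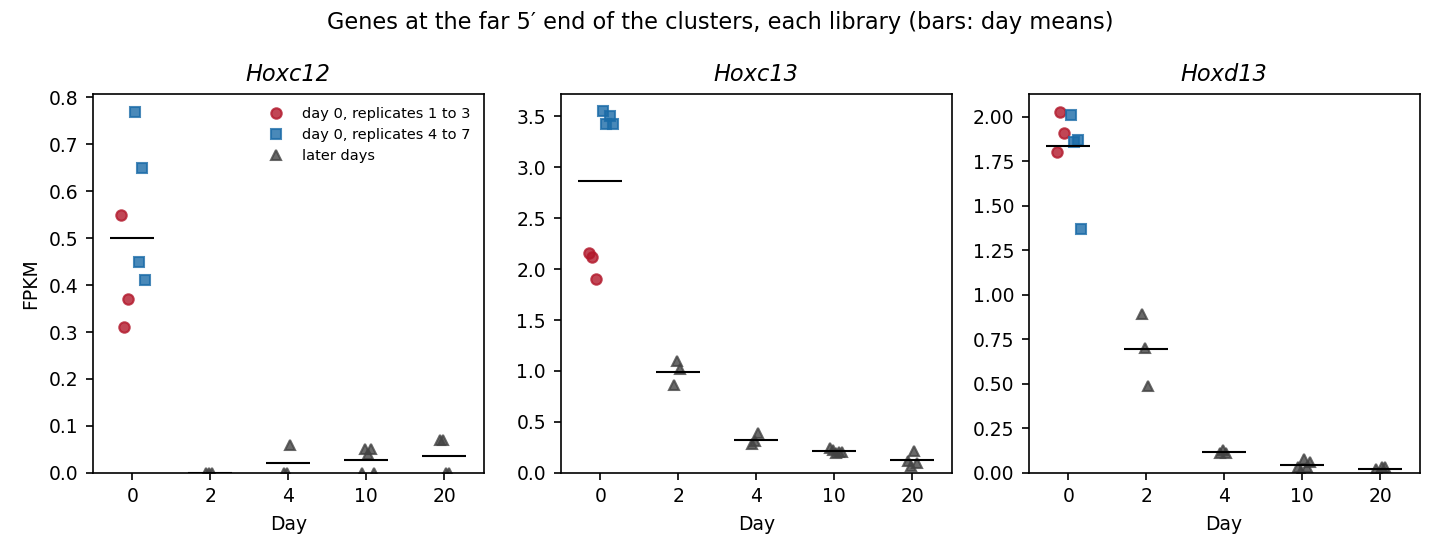
FPKM of Hoxc12, Hoxc13 and Hoxd13 in each library by day, with day means as bars and the day-0 libraries split by replicate number. All 3 genes are highest at day 0, and the day-0 libraries of Hoxc13 fall in a lower set (1.90 to 2.16) and an upper set (3.42 to 3.55).

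Beside the 3′ end of HoxC lies Smug1, which encodes a DNA repair glycosylase. It stood at 4.01 ± 0.529, 5.98 ± 0.489, 28.4 ± 0.857, 27.2 ± 0.569 and 8.24 ± 0.477 FPKM at days 0, 2, 4, 10 and 20, so that like Hoxc6 it rose mostly between days 2 and 4 (2.07 ± 0.09, limma adjusted p = 3.25e-15). Days 4 and 10 of Smug1 did not differ beyond their spread (-0.06 ± 0.08, 0.515; 0.10 with libraries scaled to the same FPKM sum). Of the 8 tested genes on the list of HoxC neighbours, 5 rose and 2 fell from day 0 to day 4, where 47% of all genes rose and 35.5% fell. Evx2, the homeobox gene next to Hoxd13, was listed at 0 in every day-2 library and stood at 1.23 ± 0.0361 FPKM at day 4 and 0.864 ± 0.0586 at day 10. It passed the filter only through its day-4 libraries, so its change to that day is a description. Of 8 tested HoxD neighbours, 3 rose and 4 fell from day 0 to day 4 (47% and 35.5% of all genes). Evx2 is 1 of the 3 that rose, and its place among them follows from the filter. None of 12 antisense and long noncoding RNAs of the Hox clusters had a row in the table.

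Hox proteins bind DNA together with the TALE cofactors of the Meis, Pbx and Pknox families. Of 9 such genes, 8 rose from day 0 to day 2, all 9 were higher at day 4 than at day 0, 7 fell from day 4 to day 10 and 8 from day 10 to day 20; of all genes 42% rose in the first of these steps, 47% were higher at day 4 than at day 0, and 32.3% and 38.1% fell in the last 2. Their median log2 change was 3.62 from day 0 to day 4 and -1.14 from day 4 to day 10, against 0.12 and 0.07 over all tested genes. Meis2 stood at 61.4 ± 5.29 FPKM at day 2, 171.1 ± 0.652 at day 4 and 65.1 ± 2.44 at day 10 (-1.38 ± 0.06 from day 4 to day 10, limma adjusted p = 1.31e-14). Meis3 stood at 86.6 ± 1.28 FPKM at day 4 and 25.8 ± 1.82 at day 10 (-1.71 ± 0.11, 6.3e-12). From day 4 to day 10 both thus fell, as Hoxd3 and Hoxd4 did, while Hoxc8 rose.

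Of 19 tested genes on a list of known upstream regulators, 14 rose and 5 fell from day 0 to day 4 (47% and 35.5% of all genes), and 4 rose and 9 fell from day 4 to day 10 (41.4% and 32.3%). Cyp26b1, which breaks down retinoic acid, went from 0.327 ± 0.0945 FPKM at day 0 to 90.7 ± 2.72 at day 4, 97.4 ± 5.46 at day 10 and 292.7 ± 23.9 at day 20. Crabp2, a retinoic acid carrier, stood at 1084 ± 23.5 FPKM at day 2, 396.2 ± 16.0 at day 4 and 5.82 ± 0.353 at day 10 (-5.86 ± 0.10 from day 4 to day 10, limma adjusted p = 6.21e-22). Gdf11, a secreted signal known to push spinal cells to posterior HoxC genes, stood at 9.76 ± 0.0305 FPKM at day 2, 48.8 ± 0.798 at day 4 and 10.7 ± 0.212 at day 10. Gdf11 was highest at day 4, and Hoxc8 and, as deposited, Hoxc9 were highest at day 10. Any link between Gdf11 and these HoxC levels was not tested. Of 15 tested Polycomb and trithorax genes, which are known to hold Hox genes off or on, 4 were higher and 9 lower at day 10 than at day 0, as were 54.1% and 36.4% of all genes. The Polycomb gene Suz12 fell from 121.8 ± 4.49 to 17.4 ± 1.31 FPKM (-2.74 ± 0.05, limma adjusted p = 1.56e-22).

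Motor neuron genes were mostly higher at day 4 than on the neighbouring days. Of 11 genes of motor neurons and their columns, all 11 rose from day 2 to day 4 (38% of all genes), and 1 rose and 9 fell from day 4 to day 10 (41.4% and 32.3%). Their median log2 change was 3.95 in the first step and -3.31 in the second, against 0.01 and 0.07 over all genes. Isl1 stood at 69.7 ± 5.47 FPKM at day 4 and 0.448 ± 0.169 at day 10 (-5.62 ± 0.13, limma adjusted p = 2.39e-19), and Mnx1 at 51.7 ± 1.73 and 1.62 ± 0.107 (-4.33 ± 0.07, 7.76e-22). At day 10, when Hoxc8 was at 28.1 ± 1.001 FPKM, Isl1 and Mnx1 were thus below their day-4 levels. Against day 0, 6 of the 11 genes were higher at day 10 and 3 lower (54.1% and 36.4% of all genes). Among them were Olig2 (log2 change 5.28 ± 0.06) and Lhx1 (3.76 ± 0.06), both higher, and Etv4 (-2.91 ± 0.15), lower. Of 5 tested genes of the rostral brain, 1 rose and 2 fell from day 0 to day 4 (47% and 35.5% of all genes). Otx2, of the forebrain and midbrain, fell from 20.9 ± 3.81 FPKM to 0.0800 ± 0.0173 (-4.32 ± 0.11, 7.45e-20), and En1, of the midbrain and of spinal interneurons, rose from 0.344 ± 0.0693 to 8.45 ± 0.187 (2.82 ± 0.06, 2.41e-21).

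Outside the 2 clusters, the genes whose levels followed the members most closely were ranked by Pearson's r over the 22 libraries, among 12426 genes with a day mean of 5 FPKM or more. The 5 closest to the HoxD mean were Meis2 (0.996), Hoxa2, Hoxb5, Bahcc1 and Meis1, so that 4 of them are Hox genes or Hox cofactors; of these 5, 2 were also among the closest over the 5 day means and 3 with 0.1 FPKM added. The 5 closest to the HoxC mean were Plxna2 (0.994), Pja1, Zfp30, Arl4c and Vps37d, of which 2 were also among the closest with 0.1 FPKM added and none over the 5 day means. For single members, Hoxb6 (0.9995) led for Hoxc5, and Hoxb6 (0.997) also for Hoxc4, Dchs1 (0.998) for Hoxc6, Prelid3a (0.983) for Hoxc8, Lgr5 (0.973) for Hoxc9, Ror2 (0.967) for Hoxd1, Rbmx (0.994) for Hoxd3, Nr2f2 (0.994) for Hoxd4 and Ephb2 (0.992) for Hoxd8. With 0.1 FPKM added, those of Hoxc4, Hoxc5, Hoxc6 and Hoxc9 were again among the 3 closest, and over the 5 day means those of Hoxc5 and Hoxc6; the genes named for Hoxc8, Hoxd1, Hoxd3, Hoxd4 and Hoxd8 were among them in neither. Lgr5, a receptor of R-spondin signals, had the same order of days as Hoxc9, at 3.62 ± 0.426, 3.01 ± 0.159, 5.41 ± 0.296 and 1.02 ± 0.346 FPKM at days 2, 4, 10 and 20. The libraries share the day pattern, so these values describe likeness and carry no p.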

How the data were processed

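Expression was read from 1 table that the authors deposited, with a column for each of 22 RNA libraries. Per the labels' protocols, polyA RNA from RNeasy columns went into NEBNext Ultra libraries. RSEM (no version) and the mm9 build are named in the submitters' processing notes; neither they nor the labels give the trimming, aligner or annotation. The values the authors deposited were read as FPKM, because library sums differ, and TPM scaled over more genes than were deposited would look alike. Libraries were grouped by the day in their title.

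The main test was limma 3.58.1 (R 4.3.3) on log2(FPKM + 1). It fitted a mean per day to the 22 libraries at once, used the trended empirical Bayes option and left 17 residual degrees of freedom. The filter asked for at least 1 FPKM in 3 or more libraries, which 14982 of 21960 genes met. Benjamini-Hochberg adjustment ran over those genes within each of the 10 pairs of days, 2-sided, at a threshold of 0.05. Many of the pairs share libraries. Shares, sums and ratios were computed per library in Python 3.11.15. The model was tested on simulated data before use.

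All 10 members are named in every comparison, the other HoxC and HoxD genes by name, and from each further list at most the 3 called genes of largest change per comparison. Of the listed genes, 2 are not reported here and were left out of the list counts. The members and the lists were chosen with earlier results of these data known. Alternatives changed the pseudocount, filter, scaling, trend, samples and replicate block. Sequences are from RefSeq, GRCm38.p6, a build other than that of the deposited table. The ATAC openness table was not used, because its regions carry no gene names and no annotation of its build was used here.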

Additional observations from a re-analysis of the deposited data

Results flagged for a closer look

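Of 30 groups of 4 to 7 libraries examined for the 10 members, 4 held a library that stood apart from its group (the gap to the next library was a large part of the group's range). Chance flags about 1 in 20 groups whose values are not mostly at 0. Hoxc5 stood at 28.35 FPKM in day-10 replicate 4, where the next library stood at 26.92 and the lowest at 26.48. Hoxd1 stood at 0.53 FPKM in day-0 replicate 6, against 0.33 in the next and 0.18 in the lowest. Hoxc8 stood at 0.05 FPKM in day-0 replicate 1 and Hoxd3 at 0.03 FPKM in day-0 replicate 4. Every other day-0 library of Hoxc8 and Hoxd3 was at 0, so the chance rate does not apply to them. The cause was not tested.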

How the results depend on the processing

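The 90 results for 9 members in 10 comparisons were recomputed under up to 32 alternatives each, 1584 values in all. Of these, 1553 kept direction and side of the threshold, 18 lost and 3 gained a call and 10 turned; 77 of the 90 results kept both throughout. Quantile normalization turned Hoxd1 (day 10 against day 0, -0.30), Hoxc9 (day 20 against day 0, -0.018; day 10 against day 2, -0.32) and Hoxd8 (day 20 against day 2, -0.35; day 10 against day 4, -0.13). It left Hoxd1 lower at day 10 and at day 20 (-0.71) than at day 0 (1 member each, in place of 0), and 1 in place of 2 higher at day 20 than at day 2, as did 0.1 FPKM added (1). Scaling to the same FPKM sum turned Hoxc8 (day 4 against day 2, 0.17), Hoxc5 (day 20 against day 2, 0.019) and Smug1 (day 10 against day 4, 0.10). Against day-0 replicates 4 to 7 alone, 1 member was lower at day 20. Leaving out 1 library at a time, Hoxc8 from day 2 to day 4 ran from -0.10 to 0.060, turning without day-2 replicate 3 and without day-4 replicate 2. The cause of these changes was not tested.

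Deviations from the day means gave no clear sign that replicate numbers pair libraries across days. They correlated at a median of 0.0018 (-0.146 to 0.219) over 34 same-number pairs, of which 2 were over 0.1. Over 154 different-number pairs the median was 0.00105 (-0.356 to 0.295), and 5 were over 0.1. Deviations were centred within each day and the labels leave pairing open, so this check cannot exclude pairing. With a replicate block, Hoxd8 from day 4 to day 10 was -0.030 and Hoxc6 lost its call (adjusted p = 0.0620), and genes called per comparison ran from 10954 to 13565. Genes called stayed within 1.5 times the main number under every alternative run (10265 to 15454, against 10788 to 13603). The median change of all genes shifted with scaling: at day 10 against day 0 it was 0.28 as deposited, -0.06 under quantile normalization and 0.63 at the same sum. The share of higher calls there was 59.8%, 47.4% and 71%, and from day 10 to day 20 it was 49.4%, 40.8% and 37.1%. Depth is unknown, so levels under about 1 FPKM are uncertain: Hoxc10, Hoxd9, all members at day 0, Hoxd1 at days 10 and 20, Hoxc9 at day 20, and Hoxc13 and Hoxd13 after day 0.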
